A study of Mus musculus with 54 samples.

Results

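The Wnt ligands, their Frizzled receptors, the R-spondins with their Lgr receptors and the secreted antagonists of the Sfrp and Dkk families were followed through embryoid body (EB) differentiation of mouse embryonic stem cells (ESCs). Members were chosen by gene symbol, with earlier results of these data known. They were the Wnt, Fzd, Sfrp, Dkk and Rspo genes and Lgr4 to Lgr6 that had a probe set annotated to that gene only. Each gene was read by the probe set with the highest mean over all arrays. This gave 36 of the 14104 genes on the arrays. They comprised 13 Wnt ligands, 9 Frizzled receptors, 8 antagonists and 6 R-spondins or Lgr receptors. Other genes of these families were not analysed here.

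Wnt ligands are secreted glycoproteins that bind Frizzled receptors. With an Lrp co-receptor they stabilise beta-catenin, which turns on target genes together with Tcf and Lef factors, while other Wnts act through Ror and planar polarity routes that do not use beta-catenin. R-spondins bound to Lgr receptors keep Frizzled at the cell surface, Sfrp proteins bind Wnts outside the cell, and Dkk1 blocks the Lrp co-receptor. In the early mouse embryo this pathway is known for its role in forming the primitive streak, from which mesoderm and endoderm arise.

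The arrays came from CGR8 cells, a male ESC line of strain 129, in 3 forms. WT were unmodified cells, SCR expressed a control shRNA of scrambled sequence, and KD expressed an shRNA that targets Mageb16, a gene of the Mage family. Each was sampled undifferentiated (day 0) and as hanging-drop EBs at days 2, 4, 12, 15 and 22, with 3 arrays in each of the 18 groups, 54 arrays in all. SCR and KD both carried an shRNA vector (pGFP-V-RS) and a puromycin selection that WT did not, and each was 1 selected population, so the shRNA and the population cannot be told apart. Whether the arrays of 1 group are separate cultures is not stated in the labels, so p values measure only the spread between these arrays. The summed signal of 6 pluripotency genes was 17398 to 20826 in the 9 arrays of day 0, with none under the lower quartile. The Mageb16 signal was lower in KD than in SCR on all 6 days, by -2.43 to -5.75 on the log2 scale (largest limma adjusted p = 6.13e-16).

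Values are log2 expression. The lower quartile of an array lay between 4.23 and 4.51, and the size of a change from a signal under it is not exact. A gene was called changed at a limma adjusted p under 0.05, adjusted over all 30939 probe sets, with at least a 2-fold difference. The third array of a group lay between the other arrays more often than either of these did in 17 of the 18 groups, for 41.6% to 59.3% of probe sets. If it is not independent of them, the SDs and p values are too small. The SCR arrays at day 4 stood apart from both other lines, as given with the WT values. In EBs, fewer cells of a type and less RNA per cell cannot be told apart.

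Promoter sequences (the 250 bases before the annotated start, RefSeq, GRCm38.p6) were at hand for 21 of the 36 genes, in 24 windows. They were searched on both strands for CTTTGA, the core of the Tcf and Lef binding motif, whose reverse complement is TCAAAG. Of all 32851 promoter windows, 4544 (13.8%) held it. Of the 24 windows of members, 4 (16.7%) held it, in 4 of the 21 genes, namely Dkk1, Fzd1, Wnt5b and Wnt11. Wnt11 was not called between KD and SCR at day 4. Of the 8 genes with a window that were higher in KD than in SCR at day 4, 3 held it. Shown are 3 of the genes that were higher in KD than in SCR at day 4, of which Dkk1 had the motif on both strands, Wnt5b had it in 1 of 3 windows and Wnt3 did not have it. Capitals mark the motif. The windows are chr19:30549497-30549746 on the minus strand for Dkk1, chr6:119449387-119449636 on the minus strand for Wnt5b and chr11:103773925-103774174 on the plus strand for Wnt3, each written 5′ to 3′ toward the gene.
Dkk1: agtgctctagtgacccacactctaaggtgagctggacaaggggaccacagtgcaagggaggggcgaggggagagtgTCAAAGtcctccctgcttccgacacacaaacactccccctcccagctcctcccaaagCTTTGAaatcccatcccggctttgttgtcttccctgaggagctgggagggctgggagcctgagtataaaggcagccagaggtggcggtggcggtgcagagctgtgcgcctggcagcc
Wnt5b: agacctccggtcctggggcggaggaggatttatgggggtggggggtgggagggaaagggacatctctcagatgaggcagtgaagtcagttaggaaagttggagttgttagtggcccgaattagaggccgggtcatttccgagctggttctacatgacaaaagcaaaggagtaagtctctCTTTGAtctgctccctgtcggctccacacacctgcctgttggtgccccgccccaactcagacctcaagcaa
Wnt3: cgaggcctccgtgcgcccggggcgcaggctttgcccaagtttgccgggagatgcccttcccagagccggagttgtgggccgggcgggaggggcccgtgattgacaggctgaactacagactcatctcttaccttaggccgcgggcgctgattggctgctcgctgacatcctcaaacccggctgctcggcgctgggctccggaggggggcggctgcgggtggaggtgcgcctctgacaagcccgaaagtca
A match describes these letters and does not show binding.

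The members fell into a few time patterns. Among the members whose group means spanned at least 2-fold within a line, 11 of 23 were highest at day 4 in WT, and 9 of 28 were in KD. In SCR, 1 of 21 was highest at day 4 and 12 were highest at day 15. In WT, 4 members were highest at day 2. These were Lgr4, Rspo1, Sfrp2 and Wnt8a. Dkk4, Wnt7b and Wnt10a were under the lower quartile in all 18 groups.

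**Figure D1:**
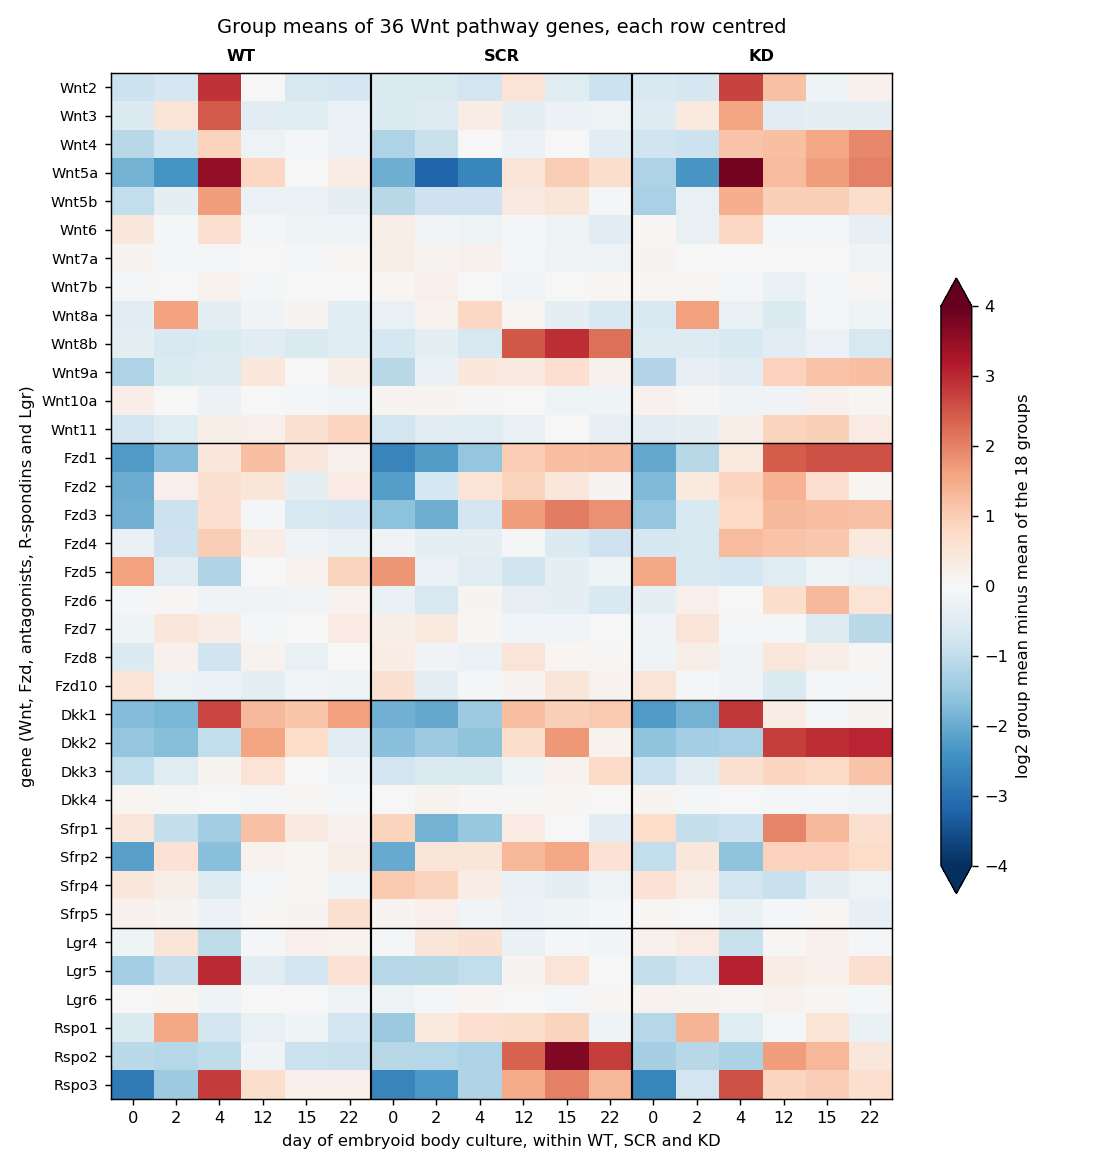
Log2 group means of the 36 genes (rows, grouped as Wnt ligands, Frizzled receptors, antagonists, and R-spondins and Lgr receptors) by day within WT, SCR and KD (columns), each row centred on the mean of its 18 group means. Wnt2, Wnt5a, Dkk1, Lgr5 and Rspo3 stand out at day 4 in WT and KD, and Wnt8b and Rspo2 stand out from day 12 in SCR.

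In undifferentiated cells a single member passed the 2-fold threshold between the lines. Sfrp2, a secreted protein that binds Wnts, read 6.71, 6.56 and 6.74 in the KD arrays, 5.43, 5.78 and 5.68 in SCR and 5.38, 5.69 and 5.35 in WT. All KD arrays were above all others. The KD and SCR difference was 1.04 (SE 0.140, adjusted p = 4.84e-07), and the KD and WT difference was 1.2 (adjusted p = 2.53e-08). The first was not called without the first SCR array. No member was called lower in KD by limma, and at an unadjusted p under 0.05 there were 4 lower than in SCR and 5 lower than in WT. Of all genes, 0.709% were higher and 0.503% lower in KD than in SCR, and 0.333% were higher and 1.18% lower in KD than in WT. Between SCR and WT no member was called by limma at day 0, with 0.121% of all genes higher and 0.78% lower. At an unadjusted p under 0.05, 7 members differed there, of which 5 had an adjusted p under 0.05 with less than a 2-fold difference, and the widest difference was that of Rspo1, at -0.93 (adjusted p = 0.000552). Without the first SCR array Rspo1 passed.

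At day 2, 5 members were higher in KD than in SCR and 0 were lower, against 2.34% and 2.4% of all genes. By limma, 3 members were lower at an unadjusted p under 0.05. The 5 higher members were Rspo3, Wnt8a and the receptors Fzd1, Fzd2 and Fzd3. Wnt8a, a ligand of the early posterior epiblast and streak, read 5.58, 5.81 and 5.56 in KD, 5.31, 6.16 and 5.40 in WT, and 4.27, 4.31 and 3.91 in SCR. Its KD and SCR difference was 1.49 (SE 0.228, adjusted p = 2.01e-06), and its SCR and WT difference was -1.46 (adjusted p = 5.94e-06). All SCR arrays were below those of both other lines, and the SCR mean was under the lower quartile.

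Rspo3, an R-spondin, read 5.10, 5.54 and 5.37 in KD at day 2, 4.43, 5.04 and 4.54 in WT, and 3.96, 3.72 and 3.82 in SCR. The KD and SCR difference was 1.5 (SE 0.211, adjusted p = 3.7e-07), with the SCR mean under the lower quartile. The receptor Fzd3 read 7.21, 7.23 and 7.24 in KD, 6.82, 7.18 and 6.94 in WT, and 5.90, 5.83 and 5.98 in SCR. It was 1.32 higher in KD than in SCR (SE 0.174, adjusted p = 9.24e-08). Fzd1 was 1.13 higher (SE 0.172, adjusted p = 1.69e-06), but another probe set of Fzd1 had the opposite sign (-0.09). That probe set had a mean of 3.08 over all arrays, under the lower quartile. Neither Fzd1 nor Fzd3 was called on the mean of its probe sets, and Fzd1 was not called without the first SCR array.

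SCR was lower than WT at day 2 in 4 members (1.74% of all genes) and higher in 0 (0.851%; 1 member at an unadjusted limma p under 0.05). Beside Wnt8a these were Rspo1, Fzd3 and Wnt3. Rspo1, the R-spondin that was highest at day 2 in WT, read 6.70, 7.04 and 7.01 in WT, 6.85, 6.53 and 6.83 in KD, and 5.74, 5.82 and 5.74 in SCR. The SCR and WT difference was -1.15 (SE 0.189, adjusted p = 1.39e-05). The Fzd3 difference of -1.08 (SE 0.174, adjusted p = 1.03e-05) was not called without the second WT array. Between KD and WT no member was called by limma (0.0567% of all genes were higher and 0.9% lower), and 3 differed at an unadjusted p under 0.05. Of these, 1 had an adjusted p under 0.05, namely Fzd1, 0.63 higher in KD (adjusted p = 0.0194).

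Day 4 held the widest differences between KD and SCR. Of the 36 members, 13 were higher in KD and 5 lower, where 5.67% of all genes were higher and 6.15% lower. The median over the members was 0.06, beside -0.0033 over all genes, so the members moved in both directions. The arrays of KD and SCR did not overlap in any of the 18, which had already been chosen by size and adjusted p. The share of all genes without overlap was not counted. The higher members were 6 of 13 Wnt ligands, 3 of 9 Frizzled receptors, Rspo3 and Lgr5, and the antagonists Dkk1 and Dkk3.

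Wnt5a, a ligand known for routes that do not use beta-catenin (GRCm38.p6, chr14:28504543-28527448), had the widest difference. It read 9.71, 9.72 and 9.96 in KD, 9.34, 9.58 and 9.53 in WT, and 3.33, 3.41 and 3.33 in SCR. KD exceeded SCR by 6.44 (SE 0.199, adjusted p = 4.38e-27), and SCR was under the lower quartile.

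Dkk1, the antagonist of the Lrp co-receptor whose promoter is shown above (gene at chr19:30545876-30549496), read 8.61, 8.79 and 8.71 in KD, 8.48, 8.59 and 8.56 in WT, and 4.09, 4.75 and 4.39 in SCR. The KD and SCR difference was 4.29 (SE 0.237, adjusted p = 7.85e-19). Lgr5, a receptor for R-spondins (chr10:115450314-115587780), read 8.03, 8.0 and 8.14 in KD, 7.59, 8.29 and 7.97 in WT, and 3.81, 4.31 and 3.82 in SCR. Its difference was 4.08 (SE 0.177, adjusted p = 3.26e-22), with the SCR mean of Lgr5 under the lower quartile. For both genes the SCR arrays were far below those of KD and WT, which lay close to each other.

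Rspo3, a ligand of these Lgr receptors (chr10:29453106-29535867), read 8.61, 8.66 and 8.68 in KD, 9.19, 8.58 and 8.98 in WT, and 4.38, 5.33 and 5.03 in SCR. Its difference was 3.74 (SE 0.211, adjusted p = 1.68e-18). An R-spondin and an Lgr receptor were thus both higher in KD.

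Among the other ligands, Wnt2 was 3.45 higher, Wnt5b 2.26, Wnt3 1.27, Wnt4 1.18 and Wnt6 1.04. Wnt2, a ligand of heart and lung mesoderm, read 6.85, 7.09 and 7.04 in KD, 7.22, 7.06 and 7.3 in WT, and 3.65, 3.41 and 3.56 in SCR. Wnt5b, a close relative of Wnt5a, read 5.86, 6.04 and 6.0 in KD, 6.4, 6.08 and 6.13 in WT, and 3.8, 3.66 and 3.66 in SCR. In both genes the SCR arrays were under the lower quartile and the arrays of KD and WT were above it. Wnt3, a ligand needed for the primitive streak, read 5.42, 4.35 and 5.05 in KD against 3.71, 3.68 and 3.63 in SCR, and 6.25, 5.25 and 5.97 in WT. Its SCR mean was under the lower quartile. The KD arrays of Wnt3 lay above those of SCR and overlapped with those of WT, but between arrays of the same number KD was lower than WT each time, by -0.83, -0.9 and -0.92. The probe sets of Wnt3 and Wnt5b are of a type that can share probes with other transcripts (suffix x_at), so their levels are less certain.

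The receptors Fzd1, Fzd4 and Fzd3 were 1.94, 1.66 and 1.58 higher in KD than in SCR at day 4. The other probe sets of Fzd3 differed by 0.70, 0.72, 0.80 and 1.12, and only that at 1.12 was called. The other probe set of Fzd1, with a mean of 3.08 over all arrays, differed by 0.19 and was not called. Fzd1 read 7.53, 7.57 and 7.53 in KD, 7.89, 7.33 and 7.54 in WT, and 5.43, 5.81 and 5.58 in SCR. Fzd4 read 6.61, 7.13 and 6.92 in KD, 5.32, 7.5 and 6.97 in WT, and 5.05, 5.27 and 5.37 in SCR. For Fzd4 the first WT array lay among those of SCR, while the other WT arrays lay with KD. Dkk3, a member of the Dkk family, was 1.19 higher in KD than in SCR and had the same low first WT array (4.55, against 6.04 and 5.78).

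The 5 members lower in KD at day 4 were Sfrp2, Lgr4, Rspo1, Wnt8a and Sfrp4. Sfrp2 read 5.83, 6.20 and 6.05 in KD, 6.15, 5.82 and 5.92 in WT, and 7.93, 8.34 and 8.17 in SCR. The KD and SCR difference was -2.12 (SE 0.140, adjusted p = 2.48e-16). The R-spondin receptor Lgr4 read 9.25, 9.34 and 9.29 in KD, 8.86, 9.35 and 9.26 in WT, and 10.67, 10.94 and 10.78 in SCR, a difference of -1.50 (SE 0.0991, adjusted p = 2.15e-16). Lgr4 and Lgr5, receptors of 1 family, thus differed in opposite directions. Rspo1 was lower by -1.15 (SE 0.189, adjusted p = 2.47e-06), Wnt8a by -1.14 (SE 0.228, adjusted p = 6.36e-05) and Sfrp4 by -1.05. The KD mean of Wnt8a was under the lower quartile, and without the second SCR array its difference was not called.

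Of those 5 genes, Lgr4, Rspo1, Sfrp2 and Wnt8a were the members highest at day 2 in WT. In WT, Rspo1 had a mean of 6.92 at day 2 and 4.65 at day 4, in KD 6.74 and 4.89, and in SCR 5.77 and 6.05. Wnt8a had a mean of 5.62 at day 2 and 3.64 at day 4 in WT, 5.65 and 3.70 in KD, and 4.16 and 4.84 in SCR. Between days 2 and 4 both genes thus had lower means at the later day in WT and KD, and not in SCR.

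**Figure D2:**
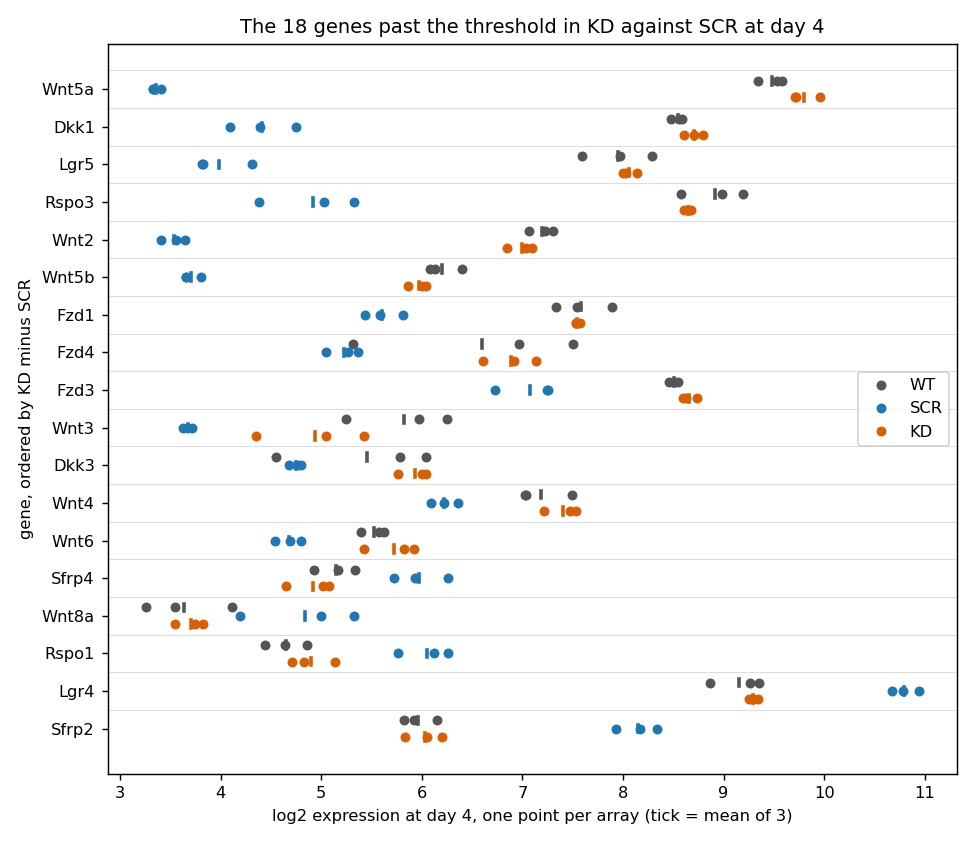
Log2 expression at day 4 of the 18 genes called between KD and SCR, with 1 point for each array and a tick for the mean of 3 (WT grey, SCR blue, KD orange), ordered by the KD and SCR difference. In Wnt5a the SCR arrays lie between 3.33 and 3.41 and those of KD and WT between 9.34 and 9.96. In Fzd4 and Dkk3 the WT arrays are spread widely.

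The WT arrays lay with those of KD. No member was called by limma between KD and WT at day 4 (0.0993% of all genes were higher and 0.305% lower), and 7 differed at an unadjusted p under 0.05. Of these, 2 had an adjusted p under 0.05 with less than a 2-fold difference, Wnt3 and Fzd8. Fzd8 was 0.65 higher in KD (95% interval 0.31 to 0.99, adjusted p = 0.0296). The difference of Wnt5a was 0.31 (95% interval -0.09 to 0.72), that of Dkk1 0.16 (-0.32 to 0.64), that of Lgr5 0.11 (-0.25 to 0.47) and that of Rspo3 -0.27 (-0.69 to 0.16). All 4 intervals held 0. The widest difference was that of Wnt3, at -0.88 (95% interval -1.25 to -0.52, adjusted p = 0.00343), under the 2-fold minimum. Without the first KD array or the second WT array it passed.

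SCR differed from WT at day 4 in 14 members, 4 higher and 10 lower, against 5.41% and 5.27% of all genes. This comparison shares its SCR arrays with that of KD and SCR. The lower members were led by Wnt5a at -6.13 (SE 0.199, adjusted p = 2.99e-26), Dkk1 at -4.13 (SE 0.237, adjusted p = 3.15e-18) and Rspo3 at -4.0 (SE 0.211, adjusted p = 2.29e-19). The higher members at day 4 were Sfrp2 at 2.18 (adjusted p = 1.21e-16), Lgr4 at 1.64 (adjusted p = 1.7e-17), Rspo1 at 1.40 (adjusted p = 5.94e-08) and Wnt8a at 1.2. In SCR, Wnt5a, Dkk1 and Rspo3 had higher means at day 12 than at day 4, and Wnt3 did not (3.67 at day 4 and 3.0 at day 12). At day 12 Wnt5a reached 6.5, Dkk1 7.09 and Rspo3 7.59, compared with day 12 means of 6.80, 7.17 and 6.83 in WT.

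**Figure D3:**
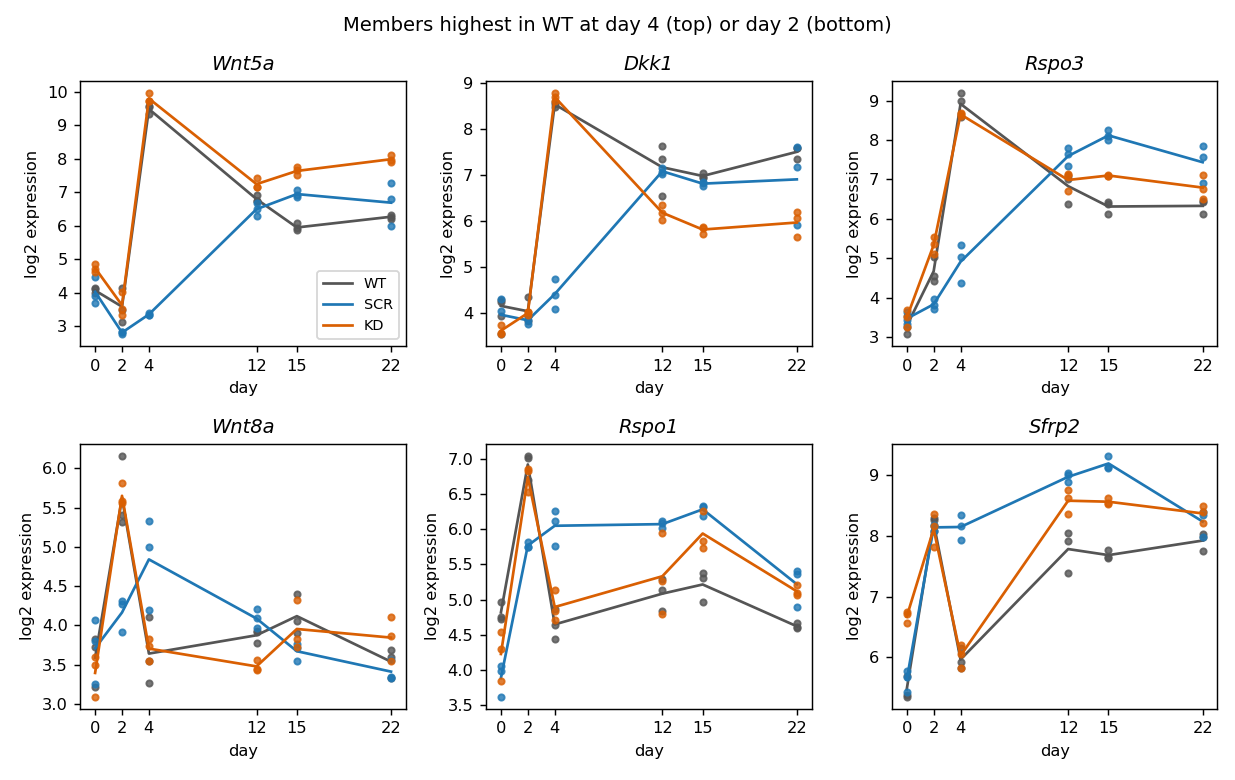
Log2 expression by day of Wnt5a, Dkk1 and Rspo3 (top) and Wnt8a, Rspo1 and Sfrp2 (bottom), with a point for each array and lines through the means of 3 arrays in WT, SCR and KD. The top genes are high at day 4 in WT and KD but not in SCR. The bottom genes are lower at day 4 than at day 2 in WT and KD. In SCR, Wnt8a and Rspo1 are higher at day 4 than at day 2.

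Other parts of the pathway were read from lists of genes, chosen with earlier results of these data known. Of 13 measured targets of Wnt and beta-catenin signalling, 7 were higher in KD than in SCR at day 4 and 0 were lower. Of all genes, 5.67% were higher and 6.15% lower. The median over the targets was 1.30, beside -0.0033 for all genes. In SCR, 8 of the 13 were lower than in WT and 0 higher (5.27% and 5.41% of all genes). Apcdd1, a target that also dampens Wnt signals, had means of 10.86 ± 0.05 in KD, 5.97 ± 0.37 in SCR and 10.64 ± 0.35 in WT (SD, n = 3), a KD and SCR difference of 4.89 (SE 0.163, adjusted p = 4.8e-26). Cdx2, a regulator of posterior identity, differed by 4.02 and the feedback inhibitor Nkd1 by 2.93. The cell cycle gene Ccnd1 differed by 1.80. It was also called higher in KD than in SCR at days 0 and 2, and than in WT at day 0.

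Of 7 other antagonists, 3 were higher at day 4 and 0 lower, where 5.67% of all genes were higher and 6.15% lower. These were Cer1 (2.89), which also binds Nodal, Frzb (2.77), a relative of the Sfrp proteins, and Igfbp4 (1.48). Of 28 measured genes of the pathway core, 3 were higher and 0 lower. Wls, which carries Wnt ligands to the cell surface, differed by 1.86, Ror2, a receptor for Wnt5a, by 1.38 and Celsr1, a planar polarity protein, by 1.14. The other 25 core genes were not called. Between KD and WT none of these 3 lists had a called gene at day 4.

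Markers of cell types also differed at day 4, where 5.67% of all genes were higher and 6.15% lower in KD than in SCR. The summed signal (values taken back from the log2 scale) of 6 primitive streak genes was 332 to 612 in SCR, 1330 to 2217 in KD and 2040 to 5475 in WT, and 5 of 6 were higher in KD than in SCR. The sum of 6 pluripotency genes was 9372 to 10480 in SCR, 1146 to 1945 in KD and 1950 to 2830 in WT, and 5 of 6 were lower in KD than in SCR while Klf4 was higher. Between KD and WT, Mixl1 and Mesp1 of the streak genes and Pou5f1 of the pluripotency genes were called lower in KD (0.305% of all genes). The sum of 7 endoderm genes was 134 to 181 in SCR, 1968 to 2192 in KD and 1852 to 2088 in WT, with 4 under the lower quartile in SCR and 1 in KD. The sum of 7 mesenchymal genes was 335 to 352 in SCR, 1748 to 2529 in KD and 1610 to 2694 in WT. Of these, 4 were higher in KD than in SCR and 2, Col1a2 and Dcn, were lower. Of 6 neural genes, 5 were under the lower quartile in KD and 3 in SCR. Their part in the Wnt gene differences was not tested.

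In late EBs (the mean of days 12, 15 and 22) 6 members were higher in KD than in SCR and 2 lower, while 10.1% of all genes were higher and 4.88% lower, so the counts of the members were near those of all genes. The higher members were Dkk2, Wnt4, Fzd1, Fzd4, Fzd6 and Sfrp1, and the lower ones were Wnt8b and Rspo2. By single day, 8 were higher and 1 lower at day 12 (8.66% and 5.46% of all genes), 6 and 4 at day 15 (10.3% and 6.15%), and 9 and 3 at day 22 (11.9% and 4.61%). Dkk2, Wnt4, Fzd1, Fzd4, Fzd6 and Sfrp1 were called higher and Wnt8b lower on each of these days. Rspo2 was called lower at days 15 and 22.

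Wnt8b, a ligand of the developing forebrain, was higher in SCR EBs. Over 9 late arrays it read 4.97 to 6.55 in SCR (median 5.91), 2.68 to 3.36 in KD (median 2.97) and 2.62 to 3.16 in WT (median 2.85). KD and WT were under the lower quartile on all days. The KD and SCR difference was -2.98 (SE 0.0882, adjusted p = 1.25e-28), and the SCR and WT difference was 3.05 (adjusted p = 7.11e-28).

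Rspo2, an R-spondin, separated all 3 lines. It read 6.59 to 8.27 in SCR (median 7.36), 4.80 to 6.42 in KD (median 5.71) and 3.31 to 4.48 in WT (median 3.69). The WT means were under the lower quartile on days 12, 15 and 22. The KD and SCR difference was -1.80 (SE 0.0906, adjusted p = 6.85e-21), the KD and WT difference 1.78 (adjusted p = 8.68e-21) and the SCR and WT difference 3.58 (adjusted p = 1.9e-29). Fzd3 ranged from 9.11 to 10.07 in SCR, 8.88 to 9.25 in KD and 6.98 to 8.01 in WT. Over these days together SCR and KD overlapped (a difference of -0.62, under the 2-fold minimum and so not called). By single day the SCR arrays lay above those of KD at days 12 and 15 and overlapped with them at day 22. Fzd3 was 2.30 higher in SCR than in WT (SE 0.10, adjusted p = 4.19e-22). It was the receptor with the widest difference between SCR and WT.

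Dkk2, a relative of Dkk1, was highest in KD. It read 7.49 to 8.20 in KD (median 7.74), 4.64 to 6.89 in SCR (median 5.73) and 4.27 to 6.49 in WT (median 5.70). KD exceeded SCR by 2.08 (SE 0.0971, adjusted p = 5.49e-22) and WT by 2.28 (adjusted p = 2.27e-23). Wnt4, a ligand of kidney and gonad development, read 7.27 to 8.26 in KD, 5.79 to 6.47 in SCR and 5.91 to 6.33 in WT, and KD exceeded SCR by 1.78 (SE 0.0674, adjusted p = 4.58e-25). The KD arrays of both genes lay above all late arrays of the other lines.

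Fzd1 read 9.52 to 9.95 in KD, 7.90 to 8.76 in SCR and 7.24 to 8.64 in WT. KD exceeded SCR by 1.36 (SE 0.0995, adjusted p = 1.16e-15) and WT by 1.89 (adjusted p = 2.45e-20), but the difference from SCR was not called on the mean of its probe sets. The other probe set had a mean of 3.08 over all arrays. Fzd4 was 1.35 higher in KD than in SCR (SE 0.142, adjusted p = 4.27e-11). In all, 7 members were higher and 1 lower in KD than in WT (11.2% and 6.21% of all genes). The higher ones were Dkk2, Fzd1, Fzd3, Rspo2, Wnt4, Wnt5a and Wnt5b. The lower one was Dkk1, which read 5.65 to 6.35 in KD and 6.54 to 7.63 in WT, a difference of -1.23 (SE 0.137, adjusted p = 1.3e-10). Dkk1 and Dkk2 thus differed from WT in opposite directions. In SCR, 5 members were higher than in WT and 0 lower (3.47% and 2.44% of all genes), with 11 lower at an unadjusted limma p under 0.05.

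**Figure D4:**
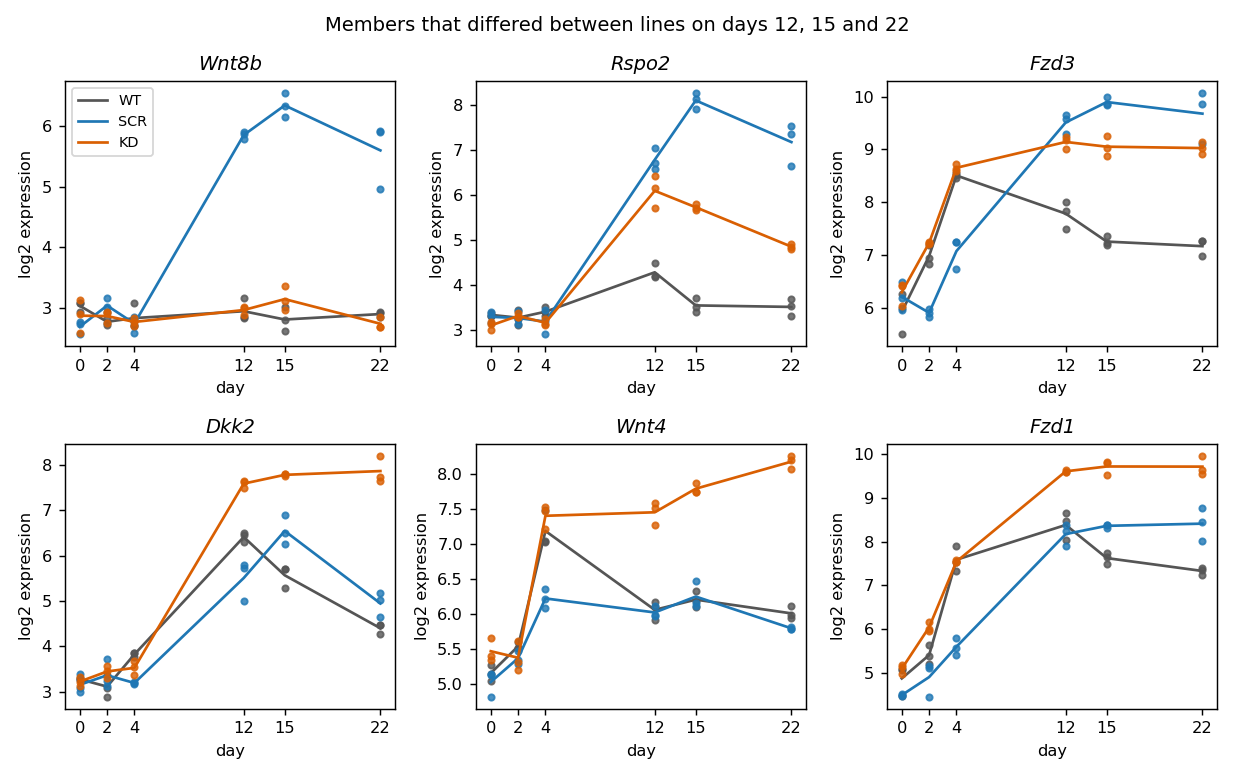
Log2 expression by day of Wnt8b, Rspo2, Fzd3, Dkk2, Wnt4 and Fzd1, with a point for each array and lines through the means of 3 arrays in WT, SCR and KD. From day 12 all SCR arrays of Wnt8b lie above those of the other lines, and Dkk2, Wnt4 and Fzd1 are highest in KD from day 12.

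Late targets of the pathway did not move one way. Of 13 targets, 2 were higher in KD than in SCR (Rnf43, 1.14, and Cdx2) and 3 lower, namely Sp8 (-1.80), Lef1 (-1.33) and Sp5 (-1.17), with a median of -0.24. Of the 28 core genes, Ror1 (1.23), Prickle1 (1.07) and Wls (1.04) were higher, and of the other antagonists Igfbp4 was higher (1.55). These counts stand beside 10.1% of all genes higher and 4.88% lower. In SCR, Lef1, Nkd1, Sp8 and Apcdd1 of the targets were called higher than in WT and 0 lower (3.47% and 2.44% of all genes). In KD, Nkd1 and Apcdd1 were called higher than in WT and Ascl2 lower (11.2% and 6.21%). At day 0, Ror1 and Prickle1 were also higher in KD than in SCR and Wls lower (0.709% and 0.503% of all genes). Against WT, SCR was lower in Prickle1 and higher in Wls at day 0. Neural, mesenchymal and endoderm markers also differed between the lines. At day 15 the summed signal of 6 neural genes was 1764 to 1792 in SCR, 412 to 518 in KD and 251 to 285 in WT. At day 12 it was 655 to 711 in SCR and 121 to 353 in KD. At day 22 SCR (1203 to 2611) and KD (1105 to 1333) overlapped, and 1 of the 6 genes was called lower. The day 15 sum of 7 mesenchymal genes was 26212 to 27309 in KD, 6333 to 7321 in SCR and 6033 to 8266 in WT. The sum of 7 endoderm genes at day 15 was 20577 to 21907 in KD, 993 to 3874 in SCR and 10560 to 14621 in WT, and 4 of 7 were higher in KD than in SCR over the late days. None of the neural genes was under the lower quartile in SCR or KD at day 15, and none of the mesenchymal genes was in any line. The sum of the 6 pluripotency genes at day 15 was 1648 to 2793 in KD, 9071 to 10188 in SCR and 11383 to 12038 in WT. Over the late days 5 of 6 neural genes were lower and 6 of 7 mesenchymal genes higher in KD than in SCR. Their part in the Wnt gene differences was not tested.

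Within each line the members changed from day 0. In WT, 14 were higher and 2 lower at day 4 (12.7% and 9.08% of all genes), in KD 13 and 4 (12.7% and 7.98%), and in SCR 8 and 2 (9.35% and 5.01%). Rspo3, Wnt5a and Dkk1 rose by 5.63, 5.41 and 4.39 in WT (SE 0.211, 0.199 and 0.237) and by 5.16, 5.06 and 5.09 in KD. In SCR the leading rises were those of Fzd2 (2.75, SE 0.144, adjusted p = 1.12e-19), Sfrp2 (2.52) and Rspo1 (2.16). Fzd5 and Sfrp1 fell in all 3 lines. The log2 change of Fzd5 was -2.80 in WT, -2.25 in KD and -2.21 in SCR, and that of Sfrp1 was -1.83, -1.59 and -2.43. In KD, Sfrp4 also fell, by 1.34 (adjusted p = 4.03e-11).

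By the late days 12 members were higher and 1 lower than at day 0 in WT (11.7% and 3.26% of all genes), 15 and 2 in SCR (15.2% and 5.2%), and 19 and 2 in KD (22.6% and 11.4%). Rspo3 was among the leading rises in every line, at 3.20 in WT, 4.25 in SCR and 3.47 in KD. Fzd1 rose by 2.89, 3.80 and 4.56. Dkk1 rose by 3.07 in WT, Rspo2 by 4.06 in SCR and Dkk2 by 4.52 in KD. Fzd5 was the member lower in all 3 lines, by -1.26 in WT, -2.24 in SCR and -1.87 in KD, and Sfrp4 was lower by -1.34 in SCR and -1.07 in KD. The KD difference of Sfrp4 was not called without the second KD array at day 0.

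The difference between KD and SCR itself changed between day 4 and the late days in 16 members, 6 toward higher in KD and 10 toward lower, where 11.3% of all genes went higher and 5.16% lower. Dkk1 went from 4.29 at day 4 to -0.95 late, a change of -5.24 (SE 0.274, adjusted p = 1.98e-19), and Wnt5a from 6.44 to 0.91, a change of -5.53 (SE 0.230, adjusted p = 1.69e-22). In the other direction Sfrp2 went from -2.12 to -0.30, a change of 1.82 (SE 0.162, adjusted p = 1.57e-12), and Dkk2 from 0.33 to 2.08, a change of 1.74 (SE 0.194, adjusted p = 5.86e-10). Wnt5a, Dkk1, Lgr5 and Rspo3, with the widest differences at day 4, were not called between KD and SCR over the mean of the late days. By single day, Wnt5a was called higher at day 22 (1.3), and Dkk1 (-1.0) and Rspo3 (-1.02) were called lower at day 15. The second probe set of Dkk1 was called lower over the late days (-1.04). Between KD and WT over the late days, Wnt5a was called higher in KD (1.28, 95% interval 1.05 to 1.52) and Dkk1 lower (-1.23). Lgr5 (0.60) and Rspo3 (0.47) were not called there.

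**Figure D5:**
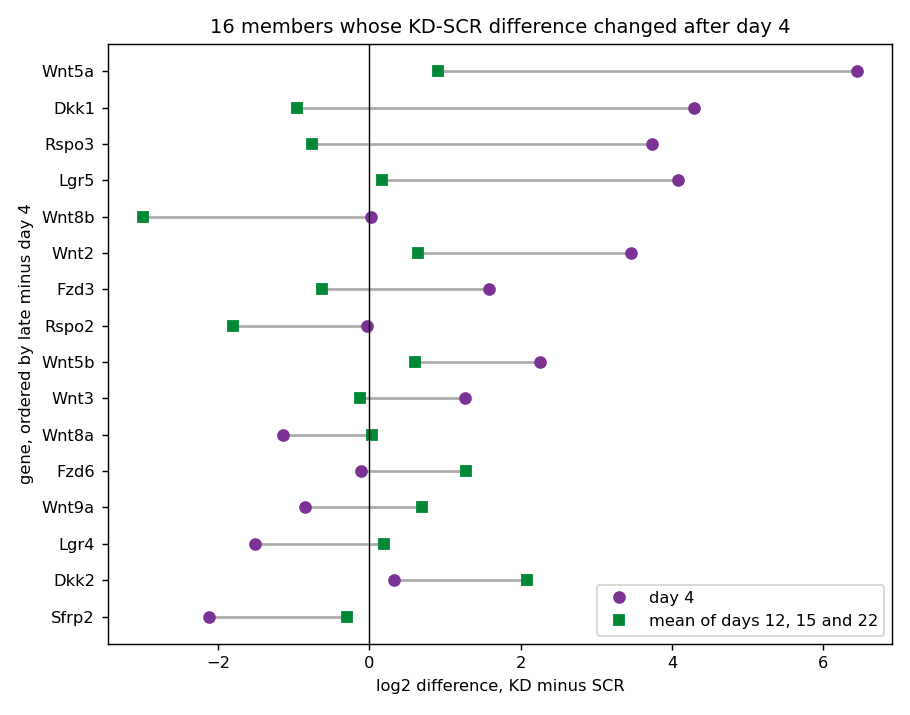
Log2 difference between KD and SCR at day 4 (circles) and as the mean of days 12, 15 and 22 (squares) for the 16 genes in which it changed past the threshold, ordered by the change. Wnt5a, Dkk1, Rspo3 and Lgr5 move from 3.74 or more to under 1, and Wnt8b and Rspo2 leave 0 only late.

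The remaining members were called less often between the lines or not at all. Wnt7a, Lgr6, Sfrp5, Fzd8 and Fzd10 were not called between any lines in the comparisons above. Fzd7, a receptor known from pluripotent stem cells, had group means of 8.55 to 10.16 and was called between KD and SCR at day 22 (-1.11). Wnt11, which acts in cell movements and heart formation, was 1.18 higher in KD than in SCR at day 12. Wnt9a was 1.05 higher at day 22.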

How the data were processed

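Per the labels, the authors hybridised RNA to Affymetrix mouse expression arrays, and their notes name RMA, Expression Console and Partek 6.6. The deposited log2 values (1.65 to 14.03, array medians 5.94 to 6.26) were used without further normalization. The table carries no detection calls. Symbols came from the platform annotation, which can be old. Line, day and replicate number came from sample titles. A linear model with a mean for every group of line and day was fitted to the 54 arrays (limma 3.58.1, R 4.3.3, eBayes), and Benjamini-Hochberg adjustment ran over 30939 probe sets. Shares of all genes refer to 14104 genes. Members and lists were chosen with earlier results of these data known. Genes named in full are, among those past the threshold whose arrays did not overlap, the 4 largest rises and falls in KD against SCR (days 0, 2, 4 and late), the 3 largest in other comparisons, and up to 4 of each pathway list. Others stand by counts and values. The fit was tested on simulated data. Alternatives were run for normalization, probe sets, arrays used, variance model, array weights and a replicate block. The number of arrays limits the precision.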

Additional observations from a re-analysis of the deposited data

Results flagged for a closer look

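In 16 members the log2 difference between KD and SCR was not the same at day 4 and in late EBs (days 12, 15 and 22), by limma's test of the change itself (adjusted p under 0.05 and at least 2-fold). Of these, 6 went toward higher in KD and 10 toward lower, where 11.3% of all genes went higher and 5.16% lower. Among the Wnt ligands, the difference went in Wnt5a from 6.44 to 0.91, a change of -5.53, and in Wnt8b from 0.03 to -2.98, a change of -3.01. For Wnt2 it went from 3.45 to 0.65 (-2.81), for Wnt5b from 2.26 to 0.60 (-1.66) and for Wnt3 from 1.27 to -0.12 (-1.38). The change was upward for Wnt9a (1.55) and Wnt8a (1.17). Among the receptors it was -2.20 for Fzd3 and 1.38 for Fzd6. Among the antagonists it was -5.24 for Dkk1, 1.74 for Dkk2 and 1.82 for Sfrp2. Among the R-spondins and their receptors it was -4.49 for Rspo3, -1.77 for Rspo2, -3.90 for Lgr5 and 1.69 for Lgr4. The adjusted p was 0.00027 for Wnt8a and 5.33e-07 or less for the others. The streak, pluripotency, neural, mesenchymal and endoderm marker sums also differed between the lines on these days, and their part was not tested.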

How the results depend on the processing

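Of 66 named differences, 59 kept their direction and call under each alternative that gave a value, and none changed direction. Over all alternatives, 11 of 1236 values lost the call. These were Fzd1 (KD and SCR, day 2) with array weights, on the mean of its probe sets and without the first SCR array of day 2, Fzd3 (KD and SCR, day 2) and Fzd1 (KD and SCR, late) on the mean of probe sets, Fzd3 (SCR and WT, day 2) on the mean of probe sets, after quantile normalization and without the second WT array of day 2, Sfrp2 (KD and SCR, day 0) without the first SCR array, Wnt8a (KD and SCR, day 4) without the second SCR array, and Sfrp4 (KD, late and day 0) without the second KD array of day 0.

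With the brightest 60% of probe sets, which leave fewer members to test, the called members fell from 18 to 10 between KD and SCR at day 4, from 12 to 7 at day 22 and from 8 to 5 late, from 8 to 5 between KD and WT late, from 4 to 1, 14 to 8 and 5 to 3 between SCR and WT at day 2, day 4 and late, from 17 to 9 in SCR and 21 to 13 in KD between late and day 0, and from 16 to 7 in the change between day 4 and late. On the mean of a gene's probe sets they fell from 5 to 3 between KD and SCR at day 2 and from 8 to 5 between KD and WT late. With array weights Rspo1 was called between SCR and WT at day 0, 1 in place of 0, and so it was without the first SCR array. The array weights did not converge and reached 45.2 (WT, day 0, replicate 3) and 0 (SCR, day 22, replicate 3), so values with them are uncertain. The cause was not tested beyond the number of members left. Leaving out single arrays gave 0 to 1 called members between KD and SCR at day 0 (0 without the first SCR array), 0 to 1 between KD and WT at day 4 (Wnt3, without the first KD or second WT array) and 0 to 1 between SCR and WT at day 0. Without every replicate 3 array, an alternative chosen after seeing the data, all 66 named differences kept their call.

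With a replicate block over all arrays the counts did not change, with 18 called at day 4 between KD and SCR and 8 late. What the number stands for is not stated. Same-numbered arrays of different lines deviated together on the early days, where the own number correlated best in all 27 pairs of days 0, 2 and 4, and in 14 of 27 later. All pairs were over 0.1 in 6 of the 18 comparisons of lines on a day, namely KD and SCR at days 0, 2 and 12, KD and WT at day 4, and SCR and WT at days 0 and 22. Between KD and SCR, correlations over the 18 pairs were -0.149 to 0.315. With a replicate block in the compared arrays alone, added after seeing the data and run for 12 comparisons, the calls numbered 9 in place of 10 between KD and SCR at day 15 and 13 in place of 14 between SCR and WT at day 4, as they did in those arrays without the block. The other 10 counts did not change, and all named differences it covered kept their call.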
